A study of Schmidtea mediterranea with 50 samples.

Results

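The last step of the *p53*(RNAi) time course in the planarian *Schmidtea mediterranea* ran from day 15 to day 18 and is held by 5 of the 50 RNA-seq libraries of the study, chosen by their labelled knockdown and day. They are *p53*(RNAi) day 18, with replicates 2 and 3, and *p53*(RNAi) day 15, with replicates 1, 2 and 3. The same step was read in *unc22*(RNAi) control worms, with 3 libraries at day 18 and 3 at day 15. All worms were whole animals of the asexual CIW4 strain that were given food with double-stranded RNA at the start of the time course, and each library came from a pool of worms. The dsRNA of the *unc22* group targets no planarian gene and accounts for feeding, time and handling. The series' design notes state that 1 outlier library was taken out. *p53*(RNAi) day 18 is the only group with 2 libraries in place of 3, so its own spread rests on a single pair. The standard errors (SE) and limma p-values below share 1 spread per transcript over all groups of the study. They do not measure the spread of that pair.

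Planarians replace their tissues throughout life from neoblasts, the dividing stem cells of the mesenchyme. Their post-mitotic progeny move outward and switch on a series of genes on the way into the epidermis and within it, and *AGAT-1*, the *zpuf* genes and *vim-3* mark steps of that path. The planarian *p53* homolog, related to a vertebrate tumour suppressor, is known from knockdown experiments to be needed both for this lineage and for upkeep of the neoblasts. RNA of whole worms measures all cell types together, so fewer cells of a type and less RNA per cell cannot be told apart in any value below.

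The libraries held 16.1 and 18.2 M reads at *p53*(RNAi) day 18 and 14.7 to 21.5 M reads at *p53*(RNAi) day 15, against 16.8 to 19.4 M reads at *unc22*(RNAi) day 18 and 14.9 to 21.5 M reads at *unc22*(RNAi) day 15. These depths were worked out from the smallest steps in the deposited RPKM values (reads per kilobase of transcript, scaled to the reads of the library), in which 1 RPKM stood for about 12.3 reads on a transcript of the median length of 643 bases. Changes are given as log2 differences of RPKM plus 0.5, day 18 minus day 15, from a limma fit of all 50 libraries, and a transcript is said to rise or fall where its adjusted p was under 0.05. The offset of 0.5 makes the changes of transcripts below about 1 RPKM look smaller than they were. *p53* itself (SMED30026364) was at 1.48 and 1.80 RPKM at *p53*(RNAi) day 18 and at 2.03, 1.98 and 2.54 RPKM at *p53*(RNAi) day 15, while it was at 31.1 to 32.5 RPKM in *unc22*(RNAi) day 18 and at 32.4 to 33.8 RPKM in *unc22*(RNAi) day 15. The knockdown was thus present on both days, and *p53* did not pass the test between them (log2 -0.32, SE 0.19, limma adjusted p = 0.31).

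Between day 15 and day 18 of *p53*(RNAi), 1359 transcripts fell (5.42% of 25079 tested) and 1491 rose (5.95%), and 101 of them fell by more than 1 on the log2 scale (0.403%) while 109 rose by as much (0.435%). The same 3 days in *unc22*(RNAi) moved far fewer transcripts, with 32 lower (0.128%) and 7 higher (0.0279%). The test of the difference between the steps called 608 transcripts lower in *p53*(RNAi) than in control (2.42%) and 834 higher (3.33%). Of the transcripts that fell in *p53*(RNAi), 577 also passed the test of the difference, and 734 of those that rose did. The counts depended on both day 18 libraries: 541 fell and 717 rose without replicate 3, and 1171 fell and 877 rose without replicate 2. Within *p53*(RNAi) day 18, replicate 3 was below replicate 2 for 1036 of the 1359 transcripts that fell. That is a larger share than over all transcripts tested, with 13605 of 25079. Replicate 3 was above replicate 2 for 874 of the 1491 that rose, although it was below for most of all those tested.

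**Figure D1:**
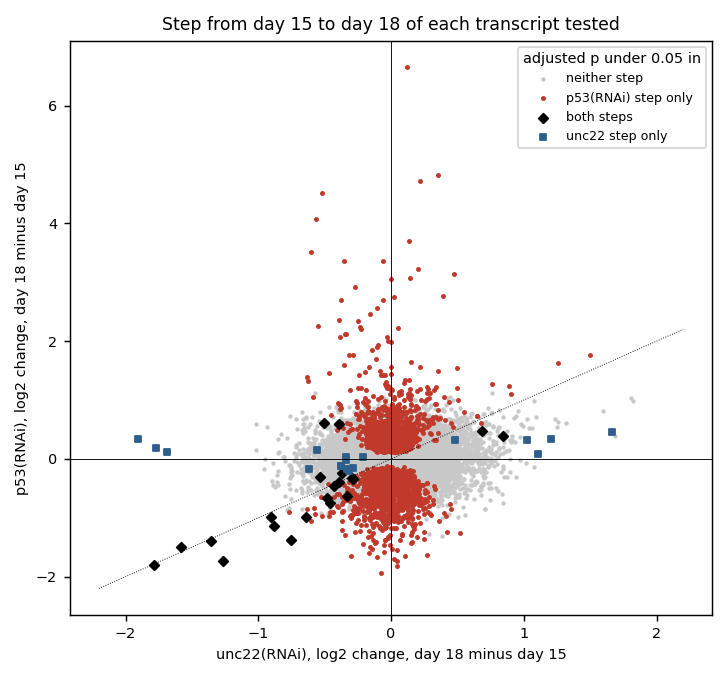
Log2 change of each tested transcript, day 18 minus day 15, in *p53*(RNAi) (vertical axis) against *unc22*(RNAi) (horizontal axis); each point is a transcript, coloured by the step in which its adjusted p was under 0.05, and the dotted line marks equal change. Most called transcripts spread up and down at little change in control, the highest reaching 6.66, while a short row of black diamonds at the lower left fell in both.

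The largest decreases among transcripts with a described homolog included *smedwi-1*, Lamin-C, a histone, a cyclin, an alpha-tubulin and MCM proteins. *smedwi-1* (SMED30007406), the piwi homolog used to stain neoblasts, was at 25.7 and 17.5 RPKM at *p53*(RNAi) day 18, against 75.7, 52.6 and 60.9 RPKM at *p53*(RNAi) day 15. In *unc22*(RNAi) it was at 162, 167 and 161 RPKM at day 18 and at 167, 159 and 162 RPKM at day 15. The groups of *p53*(RNAi) did not overlap, and the fall (log2 -1.53, SE 0.12, limma adjusted p = 7.0e-12) differed from the control step of 0.00 by -1.54 on the log2 scale (adjusted p of the difference 2.9e-08). With 1 of the day 18 libraries left out, the change of *smedwi-1* was -1.80 without replicate 2 and -1.26 without replicate 3.

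Lamin-C (SMED30010297), a protein of the nuclear lamina, was at 4.47 and 3.43 RPKM at *p53*(RNAi) day 18, against 19.1, 10.1 and 15.0 RPKM at *p53*(RNAi) day 15 (log2 -1.74, SE 0.14, limma adjusted p = 6.5e-12). Histone H2A.J (SMED30002436), a packaging protein of chromatin, was at 6.80 and 5.16 RPKM at day 18 and at 26.4, 18.2 and 17.6 RPKM at day 15 (log2 -1.70). An alpha-tubulin (SMED30031235) stood at 17.3 and 15.8 RPKM at day 18, against 60.1, 41.7 and 47.4 RPKM at day 15 (log2 -1.54). In *unc22*(RNAi) these 3 transcripts changed by 0.04, 0.02 and 0.04, and the difference of the steps passed the test for each (adjusted p between 1.5e-08 and 1.9e-08). Thioredoxin peroxidase 2 (SMED30030295), which removes peroxides, changed by -1.46, and importin alpha-1 (SMED30012458), an adaptor for nuclear import, by -1.38. In both, all *p53*(RNAi) day 18 libraries lay below all day 15 libraries, which was a condition of their choice. Of all 1359 transcripts that fell, 1332 met it.

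**Figure D2:**
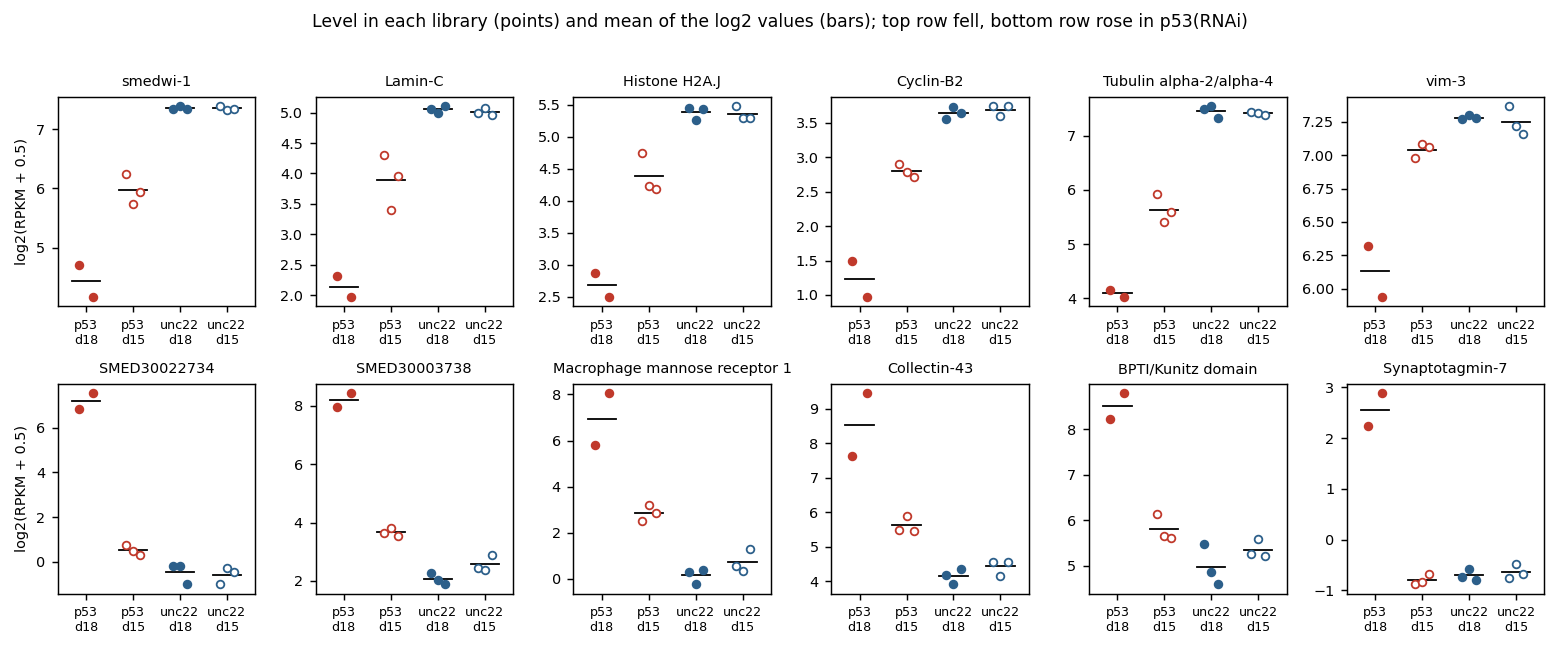
Log2(RPKM + 0.5) of 12 transcripts in each library, with *p53*(RNAi) in red and *unc22*(RNAi) in blue, day 18 filled and day 15 open, and a bar at the mean of the group. In the top row the *p53*(RNAi) day 18 libraries lie below the other groups, and in the bottom row above them, with replicate 3 (right point) well above replicate 2 for the mannose receptor and Collectin-43.

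Genes that copy DNA fell almost together. Of 42 transcripts for DNA replication proteins, 36 fell and 1 rose, with a median log2 change of -0.80 in *p53*(RNAi) and -0.03 in *unc22*(RNAi). The corresponding shares over all tested transcripts were 5.42% lower and 5.95% higher, with a median of 0.02. With limma run on the 5 *p53*(RNAi) libraries of days 15 and 18 alone, 19 of the 42 fell and 1 rose. The median of the 42 was -0.71 without *p53*(RNAi) day 18 replicate 3 and -0.91 without day 18 replicate 2. The list, like every list with a homolog or staining pattern here, was drawn from transcripts that the study had selected on these libraries as differing from control, partly on day 18 of *p53*(RNAi) itself, so its direction is not independent evidence, and over all 1595 described transcripts 21.3% fell and 17.9% rose. MCM7 (SMED30030946), a subunit of the replicative helicase, was at 3.91 and 2.53 RPKM at *p53*(RNAi) day 18, against 12.7, 8.40 and 9.55 RPKM at day 15 (log2 -1.53, SE 0.14, limma adjusted p = 8.3e-11). Its partner MCM4 (SMED30023821) changed by -1.45, dUTPase (SMED30029980), which keeps uracil out of DNA, by -1.49, and PCNA (SMED30004304), the sliding clamp of DNA polymerase, by -1.38. The exception was Cdt1 (SMED30014686), a licensing factor of replication origins, which rose by 0.61 and is named here after its value was seen.

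Mitosis and cell cycle genes fell in 27 of 32 transcripts and rose in none (median -0.67 in *p53*(RNAi), -0.02 in *unc22*(RNAi)). Only 8 of the 32 fell when limma was run on the 5 *p53*(RNAi) libraries of days 15 and 18 alone. Their median was -0.51 without *p53*(RNAi) day 18 replicate 3 and -0.74 without day 18 replicate 2. Cyclin-B2 (SMED30005246), which drives entry into mitosis, was at 2.30 and 1.46 RPKM at *p53*(RNAi) day 18, against 6.98, 6.43 and 6.09 RPKM at day 15 (log2 -1.58, SE 0.13, limma adjusted p = 5.6e-12). Its kinase partner Cyclin-dependent kinase 1 (SMED30032688) was at 1.13 and 0.804 RPKM, against 3.36, 2.89 and 2.94 RPKM (log2 -1.29). DNA repair genes fell in 16 of 23 and rose in none (median -0.46), or in 9 without *p53*(RNAi) day 18 replicate 3. Exonuclease 1 (SMED30025421), which trims DNA ends, changed by -1.04, and the mismatch repair protein Msh6 (SMED30027419) was at 0.766 and 0.562 RPKM at *p53*(RNAi) day 18, against 2.09, 1.58 and 1.81 RPKM at day 15. Of 12 histone transcripts 6 fell, among them H2A.Z (SMED30030543) at -1.08, and 1 rose (Histone H2A type 1, SMED30015694, at 0.28, named after its value was seen, a call lost when either day 18 library or day 15 replicate 1 or 3 was left out).

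Transcripts of the piwi and tudor group, which guard the genome of germ and stem cells against transposons, fell in 10 of 11 (median -0.33 in *p53*(RNAi), -0.02 in *unc22*(RNAi)), but by less than *smedwi-1*. From the 5 *p53*(RNAi) libraries of days 15 and 18 alone, limma called 5 of the 11 lower. The median of the group was -0.32 without *p53*(RNAi) day 18 replicate 3 and -0.35 without day 18 replicate 2. Piwi-like protein 2 (SMED30014446) was at 75.7 and 73.0 RPKM at *p53*(RNAi) day 18, against 115, 103 and 109 RPKM at day 15 (log2 -0.55, SE 0.05, limma adjusted p = 3.6e-10). A DDX4 helicase (SMED30031463), of the vasa family, changed by -0.49 and a second Piwi-like protein 1 (SMED30001362) by -0.39. All 3 were between 34.4 and 97.3 RPKM in the *p53*(RNAi) day 18 libraries. Among 23 transcripts whose in situ pattern the study described as neoblast-like or lost with irradiation, 15 fell and none rose (median -0.42), and 6 fell without *p53*(RNAi) day 18 replicate 3.

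Markers of the neoblast progeny fell further from levels that were already low. *AGAT-1* (SMED30018353), an enzyme of creatine synthesis, was at 30.1 and 22.0 RPKM at *p53*(RNAi) day 18, against 41.7, 40.6 and 40.6 RPKM at *p53*(RNAi) day 15 (log2 -0.66, SE 0.11, limma adjusted p = 2.1e-05). In *unc22*(RNAi) it was at 173, 180 and 168 RPKM at day 18 and 223, 194 and 203 RPKM at day 15 (log2 -0.25), and the difference of the steps did not pass the test (log2 -0.41, adjusted p = 0.090). *AGAT-1* and a similar transcript (SMED30009513, log2 -0.76) may share reads. *zpuf-1* (SMED30027156), whose product has no known function, was at 14.1 and 7.51 RPKM at *p53*(RNAi) day 18, against 21.5, 23.6 and 23.0 RPKM at day 15 (log2 -1.10, SE 0.17, adjusted p of the difference from control 0.0056).

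Of the 7 *zpuf* transcripts 6 fell (median -0.59) and *zpuf-7* did not pass the test (log2 -0.42, adjusted p = 0.23), while without *p53*(RNAi) day 18 replicate 3 only 2 fell. Among 57 transcripts stained in an *AGAT-1*-like mesenchymal pattern, 31 fell and 1 rose (Nucleobindin-1, SMED30002242, at 0.66, named after its value was seen and not called when any of the 5 *p53*(RNAi) libraries was left out), with a median of -0.40 in *p53*(RNAi) and -0.09 in *unc22*(RNAi). Without *p53*(RNAi) day 18 replicate 3, 9 fell, and the summed level of the list was 668 RPKM in that library and 828 RPKM in replicate 2. *pla2* (SMED30011291), a phospholipase A2 homolog, changed by -0.96, and *odc-1* (SMED30027207), the first enzyme of polyamine synthesis, by -0.62, both more than in control (adjusted p of the difference 4.7e-04 and 0.0022). Over the lists, the difference of the steps was called lower for 12 of the 57 mesenchymal and 2 of the 7 *zpuf* transcripts. *egr-5* (SMED30029873), a zinc finger regulator of epidermal progenitors, was at 13.3 and 11.7 RPKM at *p53*(RNAi) day 18, against 14.9, 15.9 and 16.9 RPKM at day 15 (log2 -0.34), a call that was lost without day 18 replicate 3. Its control step was -0.25, and the difference did not pass the test (adjusted p = 0.75).

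Genes expressed both below and within the epidermis fell as well, from higher levels. *vim-3* (SMED30024865), an intermediate filament gene, was at 79.4 and 60.8 RPKM at *p53*(RNAi) day 18, against 126, 135 and 133 RPKM at *p53*(RNAi) day 15 (log2 -0.91, SE 0.09, limma adjusted p = 9.5e-10). In *unc22*(RNAi) it was at 154, 157 and 154 RPKM at day 18 and 165, 148 and 143 RPKM at day 15, and the steps differed by -0.94 (adjusted p = 8.0e-07). *zpuf-6* (SMED30030681) was at 136 and 113 RPKM at *p53*(RNAi) day 18, against 193, 194 and 202 RPKM at day 15 (log2 -0.65, adjusted p of the difference 0.0038). A second intermediate filament transcript, ifb-1 (SMED30014019), changed by -0.70. Of 9 transcripts with an epidermal pattern 5 fell and none rose, or 3 without *p53*(RNAi) day 18 replicate 3.

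The largest increase was in a transcript with no described homolog. SMED30022734 was at 113 and 183 RPKM at *p53*(RNAi) day 18, against 1.17, 0.915 and 0.731 RPKM at *p53*(RNAi) day 15, a log2 change of 6.66 (SE 0.34, limma adjusted p = 2.6e-17) and a 157-fold ratio of the means. In *unc22*(RNAi) it did not pass 0.389 RPKM in any of the 6 libraries. SMED30003738 was at 245 and 342 RPKM at day 18, against 12.1, 13.5 and 11.0 RPKM at day 15 (log2 4.52), and SMED30013580 at 80.3 and 115 RPKM, against 4.99, 3.28 and 1.40 RPKM (log2 4.83). SMED30029247 was at 7.87 and 20.4 RPKM at day 18 and is listed at 0 in all 3 day 15 libraries, and SMED30033800 changed by 3.70. In each of the 5 transcripts both day 18 libraries exceeded every control library. That they also exceeded every day 15 library was a condition of the choice. Of all 1491 transcripts that rose, 1473 had day 18 and day 15 libraries that did not overlap.

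Lectin-like transcripts were among the largest increases of those with a described homolog. One of the transcripts annotated as Macrophage mannose receptor 1 (SMED30007501), an endocytic receptor for sugars in vertebrates, was at 55.3 and 263 RPKM at *p53*(RNAi) day 18, against 5.14, 8.63 and 6.69 RPKM at *p53*(RNAi) day 15 (log2 4.08, SE 0.40, limma adjusted p = 5.6e-10). Control levels were 0.354 to 0.820 RPKM at day 18 and 0.768 to 1.93 RPKM at day 15. Collectin-43 (SMED30003676), a soluble lectin of innate immunity in mammals, was at 198 and 696 RPKM at *p53*(RNAi) day 18, against 44.4, 59.2 and 43.5 RPKM at day 15 (log2 2.92), and Collectin-11 (SMED30024391) at 44.3 and 136 RPKM, against 7.63, 8.54 and 5.55 RPKM (log2 3.36). The day 18 libraries of these 3 differed widely from each other, and replicate 3 was the higher each time. The SE of the mannose receptor, 0.40, comes from the spread shared over all groups and not from these libraries alone. The change of the mannose receptor was 5.19 without replicate 2 and 2.96 without replicate 3, and that of Collectin-43 was 3.83 and 2.01. A versican core protein homolog (SMED30020539), a matrix proteoglycan with a lectin domain in vertebrates, was at 17.9 and 27.6 RPKM, against 3.76, 3.62 and 2.74 RPKM (log2 2.56).

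Among the 12 largest rises with a described homolog were 3 Kunitz-type inhibitors, small secreted proteins that block serine proteases. The BPTI/Kunitz domain transcript (SMED30015120) was at 298 and 441 RPKM at *p53*(RNAi) day 18, against 69.8, 50.3 and 48.2 RPKM at *p53*(RNAi) day 15 (log2 2.70, SE 0.23, limma adjusted p = 1.5e-11), and the InhVJ homolog (SMED30021397) at 23.6 and 28.2 RPKM, against 3.08, 2.25 and 2.56 RPKM (log2 3.08). The kalicludine-2 homolog (SMED30016139) was at 162 and 325 RPKM, against 51.4, 78.5 and 62.0 RPKM (log2 1.85). Plasminogen (SMED30019873), a serine protease precursor, was at 15.1 and 17.9 RPKM, against 3.08, 3.07 and 2.97 RPKM (log2 2.26). Over 26 secreted proteases and inhibitors, 13 rose and 1 fell (Carboxypeptidase N, SMED30002098, at -0.41, named after its value was seen and not called without day 18 replicate 3), with a median of 0.35 in *p53*(RNAi) and -0.02 in *unc22*(RNAi), and the summed level was 6191 and 5439 RPKM at day 18, against 4045, 4026 and 3889 RPKM at day 15. An exact permutation test of such a sum, 2 libraries against 3, cannot give a two-sided p below 0.2.

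Other named increases belonged to varied classes. Synaptotagmin-7 (SMED30000412), a calcium sensor of membrane fusion in animals, was at 4.24 and 6.85 RPKM at *p53*(RNAi) day 18 and did not exceed 0.128 RPKM at *p53*(RNAi) day 15 or 0.217 RPKM in *unc22*(RNAi) (log2 3.36, SE 0.22, limma adjusted p = 1.2e-14). Cornifelin (SMED30035001), a protein of the cornified skin layer in mammals, was at 28.9 and 53.1 RPKM at day 18, against 8.57, 7.35 and 8.25 RPKM at day 15 (log2 2.22). Cytochrome P450 2C37 (SMED30017065), of an oxidising enzyme family, changed by 2.12, and a cationic amino acid transporter (SMED30034574) by 1.77. An ubiquitin-60S ribosomal protein L40 transcript (SMED30007461), which encodes ubiquitin fused to a ribosomal protein, was at 116 and 193 RPKM, against 44.0, 47.9 and 45.7 RPKM (log2 1.70). Of the 37 ribosomal protein transcripts 3 fell (8.11%) and 2 rose (5.41%), against 21.3% and 17.9% of all described transcripts. Over all tested transcripts the shares were 5.42% and 5.95%.

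Genes of lysosomes and phagocytes rose more widely but by less. Of 39 transcripts 24 rose and 2 fell (Cathepsin L1, SMED30023109, at -0.35 and Saposin-C, SMED30033467, at -0.34, named after their values were seen, neither called without day 18 replicate 3, day 15 replicate 2 or day 15 replicate 3), with a median of 0.23 in *p53*(RNAi) and -0.08 in *unc22*(RNAi). Without 1 of the *p53*(RNAi) libraries 13 to 23 rose, with 13 without day 18 replicate 2, 14 without day 18 replicate 3 and 15 without day 15 replicate 3. Their summed level was 8190 and 8529 RPKM at day 18, against 6568, 6740 and 6385 RPKM at day 15. Macrophage-expressed gene 1 protein (SMED30011264), a pore-forming protein of phagocytes in mammals, was at 23.3 and 20.2 RPKM at *p53*(RNAi) day 18, against 12.0, 12.2 and 11.2 RPKM at day 15 (log2 0.85, SE 0.11, limma adjusted p = 4.7e-07), and a second mannose receptor homolog (SMED30011012) was at 618 and 670 RPKM, against 397, 406 and 403 RPKM (log2 0.68).

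The immediate early genes *fos-1* (SMED30013808) and *jun-1* (SMED30001802), transcription factors switched on within hours of wounding in planarians, rose by a small amount. *fos-1* was at 70.8 and 74.5 RPKM at *p53*(RNAi) day 18, against 50.5, 54.5 and 58.0 RPKM at *p53*(RNAi) day 15 (log2 0.42, SE 0.05, limma adjusted p = 2.8e-07), and in *unc22*(RNAi) it was at 37.3 to 40.0 RPKM on both days. *jun-1* was at 34.8 and 35.6 RPKM, against 28.2, 27.1 and 27.5 RPKM (log2 0.34). Both steps differed from control (adjusted p 4.2e-05 and 8.8e-04). Among 27 TNF receptor-associated factors, adaptors of immune receptor signalling, 6 rose and 3 fell, while 4 rose and none fell without day 18 replicate 3, and 1 fell without day 15 replicate 3. The 6 and 3 are 22.2% and 11.1% of the list, against 17.9% and 21.3% of all described transcripts. TRAF6 (SMED30003035), one of those that rose, was at 15.2 and 19.0 RPKM at day 18, against 7.01, 7.60 and 7.07 RPKM at day 15 (log2 1.18).

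**Figure D3:**
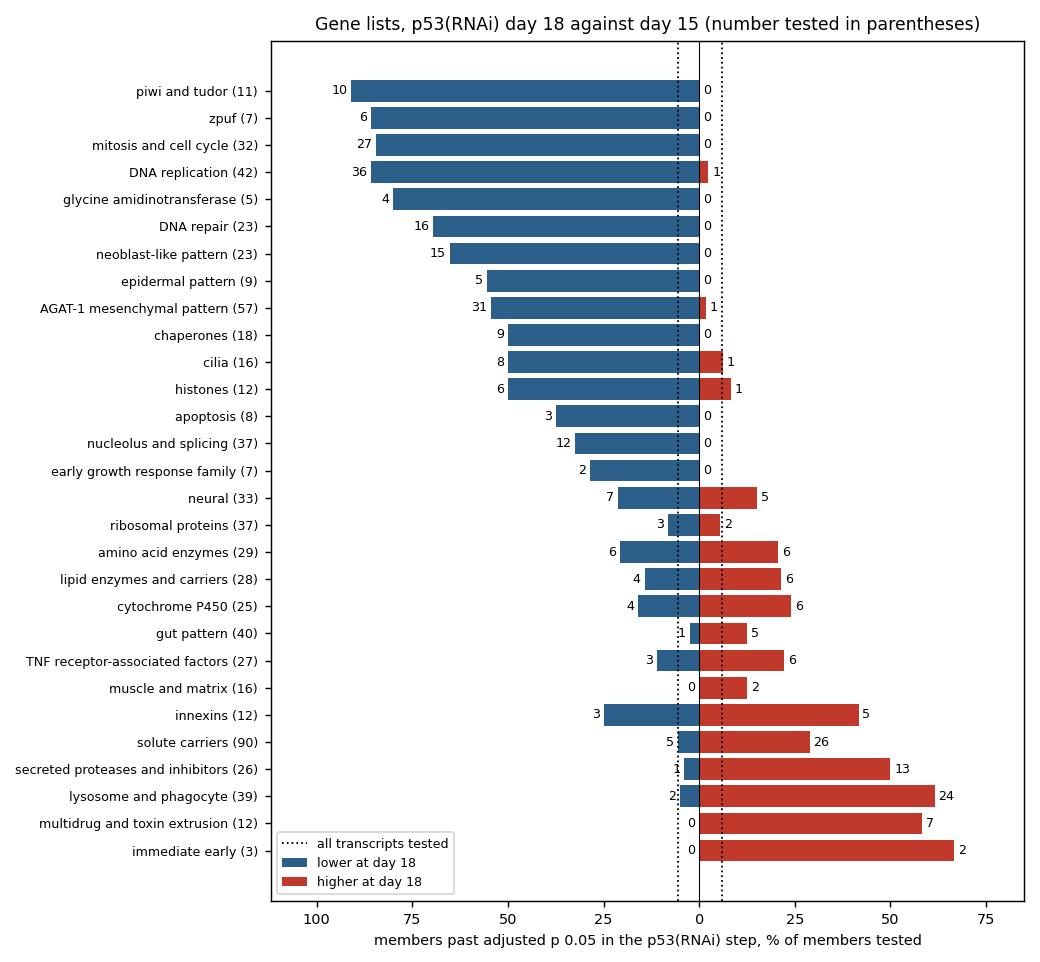
Share of each list's tested members that fell (left, blue) or rose (right, red) between day 15 and day 18 of *p53*(RNAi), in percent, with the counts at the bar ends, the number tested in parentheses and the shares over all tested transcripts as dotted lines. Piwi and tudor, replication and cell cycle lists reach 84.4% to 90.9% on the left, and the lysosome list 61.5% on the right.

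Of 90 solute carriers and other transporters 26 rose and 5 fell (median 0.16), and without *p53*(RNAi) day 18 replicate 2 or 3 only 15 rose in each case, with 16 without day 15 replicate 3. The 26 and 5 are 28.9% and 5.56% of the list, against 17.9% and 21.3% of all described transcripts. Zinc transporter 10 (SMED30008023) was at 14.6 and 15.7 RPKM at *p53*(RNAi) day 18, against 6.43, 6.70 and 6.25 RPKM at day 15 (log2 1.17, SE 0.16, limma adjusted p = 6.0e-07). Of 25 cytochrome P450s 6 rose (24%) and 4 fell (16%), against 17.9% and 21.3% of all described transcripts (median -0.06 over the P450s). Those that rose included 2C50 (SMED30003013) at 1.42 and 2J6 (SMED30035750) at 0.80, while *cyp3142A1* (SMED30031568) fell by 0.47 and *cyp3141A1* (SMED30030642) by 0.57, and without *p53*(RNAi) day 18 replicate 3 no P450 fell. Glutamine synthetase (SMED30029103), which fixes ammonia, was at 78.5 and 93.5 RPKM at day 18, against 38.7, 42.4 and 40.2 RPKM at day 15 (log2 1.07). Among 29 amino acid enzymes 6 rose and 6 fell (20.7% each, near the shares of all described transcripts), or 3 and 3 without day 18 replicate 3.

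Gut markers and multidrug and toxin extrusion transporters, which export organic cations, rested on single libraries. Of 12 such transporters 7 rose (median 0.50), but 1 rose without *p53*(RNAi) day 18 replicate 2, and 3 without either day 15 replicate 2 or day 15 replicate 3. The first of them (SMED30031985) was at 14.5 and 12.9 RPKM at *p53*(RNAi) day 18, against 7.77, 5.70 and 5.16 RPKM at day 15 (log2 1.10, adjusted p = 1.1e-06), and at 12.4 to 14.4 RPKM in *unc22*(RNAi) day 18. Of 40 transcripts with a gut pattern 5 rose and 1 fell, whereas without *p53*(RNAi) day 18 replicate 2 none rose and 4 fell, and without day 15 replicate 2 or 3 the rises numbered 1 and 0. Their summed level was 3412 and 2706 RPKM at day 18, against 2927, 2090 and 2207 RPKM at day 15, so the groups overlapped. *nkx-2.2* (SMED30011793), a homeobox gene of the gut, was at 28.2 and 18.4 RPKM, against 20.8, 13.9 and 14.8 RPKM (log2 0.47, limma adjusted p = 0.0499), and changed by 0.17 without day 18 replicate 2 (adjusted p = 0.71).

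Among transcripts without a described homolog, SMED30026425 was at 95.7 and 52.5 RPKM at *p53*(RNAi) day 18, against 203, 232 and 239 RPKM at *p53*(RNAi) day 15 (log2 -1.65), and SMED30032293 at 6.10 and 2.37 RPKM, against 12.8, 19.6 and 17.1 RPKM (log2 -1.94). Both lay below all of their day 15 libraries, as their choice required, and SMED30032293 had the lowest log2 change of all tested transcripts.

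Lists of other cell types and gene classes of the whole worm did not share a direction. Over all described transcripts, 21.3% fell and 17.9% rose. Of 16 muscle and matrix transcripts 2 rose (12.5%) and none fell. Their summed level was 502 and 534 RPKM at *p53*(RNAi) day 18, against 482, 487 and 472 RPKM at day 15. Of 33 neural transcripts, a list found by name that also holds Synaptotagmin-7 and a protein of meiotic chromosomes, 7 fell (21.2%) and 5 rose (15.2%). These shares are near the 21.3% and 17.9% of all described transcripts. In that list 2 acetylcholine receptor subunits (SMED30034555 and SMED30025787) both changed by -0.89. Of 16 cilia and tubulin transcripts 8 fell (50%) and 1 rose (6.25%). The dynein light chain Tctex1 (SMED30032837) changed by -1.25 and Tektin-3 (SMED30029546), of ciliary microtubules, by -0.54. For the innexins and apoptosis genes that follow, the shares that fell were 25% and 37.5%, and those that rose 41.7% and 0%. Innexins, the gap junction proteins of invertebrates, fell in 3 of 12 and rose in 5, and the number that rose was 0 without day 18 replicate 3 and 2 without day 18 replicate 2. Apoptosis genes fell in 3 of 8 (1 without day 18 replicate 3), among them the Fas apoptotic inhibitory molecule (SMED30005285) at -0.38, and none rose.

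Of 37 nucleolar and splicing transcripts 12 fell and none rose (median -0.15), but 3 fell without day 18 replicate 3 and 6 without day 15 replicate 1. Of 18 chaperones, which help proteins fold, 9 fell and none rose (median -0.27). Among 28 lipid enzymes and carriers 4 fell (14.3%) and 6 rose (21.4%), with 1 falling without day 18 replicate 3. Of all described transcripts 21.3% fell and 17.9% rose.

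A small group fell in control worms too. Of the 32 transcripts that fell in *unc22*(RNAi), 17 also fell in *p53*(RNAi), 13 did not pass the test there and 2 rose. Major egg antigen (SMED30013692), a small heat shock protein homolog, was at 101 and 102 RPKM at *p53*(RNAi) day 18, against 318, 380 and 369 RPKM at *p53*(RNAi) day 15 (log2 -1.80, SE 0.11, limma adjusted p = 1.8e-15). Its *unc22*(RNAi) levels were 70.8, 64.5 and 68.3 RPKM at day 18, against 209, 243 and 256 RPKM at day 15 (log2 -1.79), and the steps did not differ beyond their error (log2 -0.02, adjusted p = 0.97). The chaperone heat shock cognate 71 kDa (SMED30002262) changed by -1.49 in *p53*(RNAi) and by -1.58 in *unc22*(RNAi). At day 12 Major egg antigen averaged 193 RPKM in *p53*(RNAi) and 77.3 RPKM in *unc22*(RNAi), against 356 RPKM and 236 RPKM at day 15.

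Of 7 early growth response transcripts, zinc finger factors, 3 fell in *unc22*(RNAi) and did not pass the test in *p53*(RNAi), and the difference of the steps was called higher for 3, while 2 others, *egr-5* and SMED30012332 (log2 -0.46), fell in *p53*(RNAi), neither of them called without day 18 replicate 3. *egr-3* (SMED30009224) was at 7.91 and 6.39 RPKM at *p53*(RNAi) day 18 and at 6.23, 5.54 and 4.97 RPKM at *p53*(RNAi) day 15 (log2 0.33, limma adjusted p = 0.40). In *unc22*(RNAi) it fell to 0.689, 0.972 and 1.04 RPKM at day 18, against 4.73, 4.97 and 4.50 RPKM at day 15 (log2 -1.91). An Early growth response protein 4 homolog (SMED30029780) was at 19.3 and 17.5 RPKM at *p53*(RNAi) day 18, against 17.9, 15.8 and 14.6 RPKM at day 15, while in *unc22*(RNAi) it was at 2.87 to 5.38 RPKM at day 18, against 14.6 to 18.2 RPKM at day 15 (log2 -1.77). The steps differed by 2.24 for *egr-3* (adjusted p = 1.2e-06) and by 1.96 for SMED30029780 (adjusted p = 1.4e-05). The third, SMED30022030, named after its value was seen, changed by 0.11 in *p53*(RNAi) and by -1.68 in *unc22*(RNAi).

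Libraries of day 12 place the moving transcripts relative to control. Of those that fell by day 18, 31.2% were already below *unc22*(RNAi) at day 12 and 13.0% above it, against 13.4% and 15.0% of all tested transcripts. Of those that rose, 34.8% were already above control at day 12 and 20.6% below it. For the 109 that rose by more than 1, 61.5% did not pass the test at day 12, 17.4% were above control and 21.1% below it. The median log2 difference from control at day 12 was -2.13 over the *AGAT-1* mesenchymal list, -0.26 over the replication list and -0.05 over the lysosome list. The study chose the transcripts of these lists for their difference from control in these time courses, so the levels at day 12 are a description of that choice as well.

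The course over earlier days was also read, where *p53*(RNAi) day 9 replicate 1 stood apart with the lowest estimated library weight of the 50 libraries (0.189). In *p53*(RNAi) the mean level of *smedwi-1* was 292 RPKM at day 9, 123 RPKM at day 12, 63.1 RPKM at day 15 and 21.6 RPKM at day 18, and the day 9 libraries were at 296, 299 and 280.4 RPKM. SMED30022734 averaged 0.0936 RPKM at day 12, 0.939 RPKM at day 15 and 148 RPKM at day 18, nearly all of it gained in the last interval. The mannose receptor SMED30007501 was at 23.6 RPKM at day 9 (21.5, 30.8 and 18.7 RPKM), 3.94 RPKM at day 12, 6.82 RPKM at day 15 and 159 RPKM at day 18, a lower level at day 12 than at day 9 and a higher one at day 18. *chd4*(RNAi), a knockdown of a chromatin remodelling protein that the study followed to day 15, gave means of 149 RPKM for SMED30022734 and 52.9 RPKM for SMED30007501 at day 15.

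**Figure D4:**
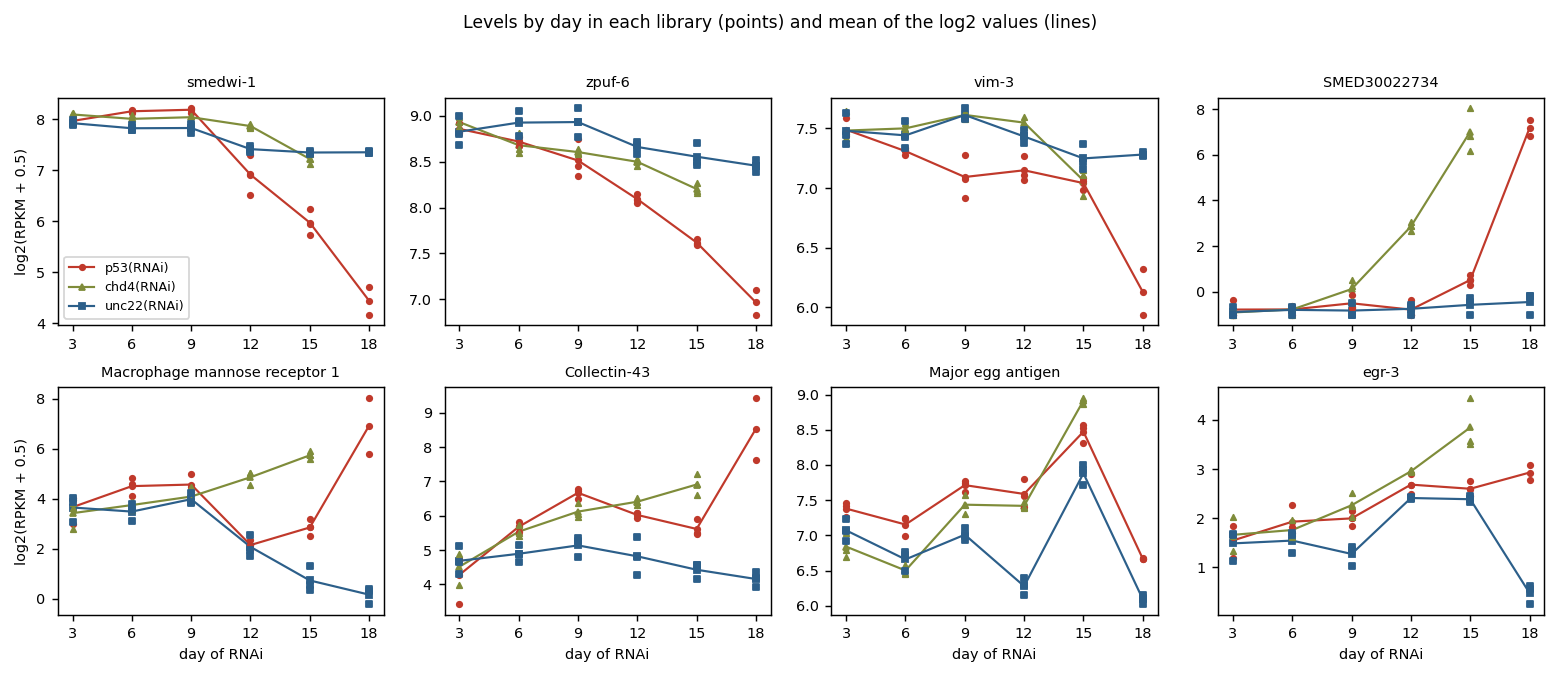
Log2(RPKM + 0.5) of 8 transcripts by day of RNAi in *p53*(RNAi) (red circles), *chd4*(RNAi) (green triangles, to day 15) and *unc22*(RNAi) (blue squares), with points for libraries and lines through the means of the log2 values. *smedwi-1* declines in *p53*(RNAi) from day 9 on, SMED30022734 jumps between day 15 and day 18, and Major egg antigen is highest at day 15 in all 3 treatments, which for *chd4*(RNAi) is the last day.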

How the data were processed

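Whole worms of 3 RNAi treatments were collected at several days, and poly(A) RNA was made into stranded libraries. The authors demultiplexed reads with CASAVA 1.8.2, mapped them with Bowtie to an assembled transcriptome, tallied counts with a custom script and tested them with edgeR. They deposited RPKM values, without the counts. A read could be placed on several similar transcripts, so close copies may share reads. From the RPKM values, log2(RPKM + 0.5) was fitted here with limma 3.58.1 (R 4.3.3, intensity trend) over 50 libraries in 17 groups. A transcript was tested where at least 2 libraries reached 1 RPKM (25079 tested, 9978 left out), and p-values were adjusted by Benjamini and Hochberg within each comparison. Comparisons were *p53*(RNAi) day 18 against day 15, the same step in *unc22*(RNAi), the difference of these steps, and *p53*(RNAi) against *unc22*(RNAi) at day 12. Summed levels were compared by an exact two-sided permutation test.

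Depth came from the smallest steps in the RPKM values and sets the error of low transcripts. Data for the *p53*(RNAi) step were simulated with independent noise at the fitted spread of each transcript, 25079 transcripts in the fit. Changes were placed only in transcripts of higher mean level. The test called 100% of 50 transcripts lowered by 1 on the log2 scale, 86% of 50 changed by 0.5 in either direction and 98% of 50 raised by 1. Of 24879 unchanged transcripts 13 were called. These rates do not cover changes in transcripts near 1 RPKM, or shifts that many transcripts of a library share. The noise had the spread fitted over all groups, so the rates also do not cover a wider spread at *p53*(RNAi) day 18.

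Homolog names came from the study's supplementary lists and exist only for transcripts it selected. A transcript without a described homolog may still have one. The members and the gene lists were chosen with earlier results of these data known. Named transcripts were those the study names, the 12 largest described and 5 largest undescribed changes in each direction among those past the threshold whose libraries did not overlap, up to 4 members per list, the 5 largest differences of the steps in each direction, and the 3 largest control changes in each direction. Alternatives were other pseudocounts, filters, scaling, fits of fewer groups, a replicate block, library weights, no trend, a log2 threshold and leaving out each library. No genome or protein sequence was used here. Figures were drawn with matplotlib 3.10.9.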

Additional observations from a re-analysis of the deposited data

Results flagged for a closer look

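The *p53*(RNAi) step from day 15 to day 18 differed from the *unc22*(RNAi) step by a test of the difference itself (limma, adjusted p under 0.05) in 608 transcripts that were lower and 834 that were higher in *p53*(RNAi). Those with a difference beyond 1 on the log2 scale are given here for the transcripts named by the study or for the size of their change, and then for some named from gene lists.

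On the lower side the difference of the steps was -1.54 for *smedwi-1*, -1.78 for Lamin-C (SMED30010297), -1.72 for Histone H2A.J (SMED30002436), -1.52 for Cyclin-B2 (SMED30005246), -1.59 for alpha-tubulin (SMED30031235) and -1.39 for MCM7 (SMED30030946). It was -1.33 for dUTPase (SMED30029980), -1.46 for thioredoxin peroxidase 2 (SMED30030295), -1.40 for MCM4 (SMED30023821) and -1.34 for importin alpha-1 (SMED30012458). Of transcripts without a described homolog, SMED30032293 differed by -1.87, SMED30028674 by -1.87 and SMED30026425 by -1.76.

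On the higher side it was 4.64 for the mannose receptor (SMED30007501), 3.71 for Collectin-11 (SMED30024391), 3.19 for Collectin-43 (SMED30003676), 3.42 for Synaptotagmin-7 (SMED30000412) and 2.67 for versican (SMED30020539). It was 2.94 for InhVJ (SMED30021397), 3.08 for BPTI/Kunitz (SMED30015120), 2.00 for kalicludine-2 (SMED30016139) and 2.80 for plasminogen (SMED30019873). Cornifelin (SMED30035001) differed by 2.16, Cytochrome P450 2C37 (SMED30017065) by 2.47 and the cationic amino acid transporter (SMED30034574) by 2.06. Without a described homolog, SMED30022734 differed by 6.54, SMED30003738 by 5.03, SMED30029247 by 4.50, SMED30013580 by 4.47 and SMED30033800 by 3.57. *egr-3* differed by 2.24 and SMED30029780 by 1.96, with the change on the side of *unc22*(RNAi).

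Of transcripts named from gene lists, PCNA (SMED30004304) differed by -1.44, Cyclin-dependent kinase 1 (SMED30032688) by -1.43, Tctex1 (SMED30032837) by -1.40, an acetylcholine receptor subunit (SMED30034555) by -1.09, Exonuclease 1 (SMED30025421) by -1.06, Histone H2A.Z (SMED30030543) by -1.02 and Msh6 (SMED30027419) by -1.01. Ubiquitin-60S L40 (SMED30007461) differed by 1.81, Cytochrome P450 2C50 (SMED30003013) by 1.66, Macrophage-expressed gene 1 (SMED30011264) by 1.24, glutamine synthetase (SMED30029103) by 1.21, TRAF6 (SMED30003035) by 1.18, Zinc transporter 10 (SMED30008023) by 1.16 and the first extrusion transporter (SMED30031985) by 1.10.

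The transcripts with the 12 largest described and 5 largest undescribed rises in *p53*(RNAi) were also read in *chd4*(RNAi) at day 15. For 17 of these 17 every library was above every *unc22*(RNAi) day 15 library. The share over all tested transcripts was not counted, so this gives no measure of how alike the knockdowns were. Descriptions exist only for transcripts that the study selected, in part as raised in *chd4*(RNAi) at day 15, so for the 12 this is not independent of their choice. Whether the study also selected the 5 was not checked. The mean *chd4*(RNAi) level was 149 RPKM for SMED30022734, 145 RPKM for SMED30003738, 35.8 RPKM for SMED30013580, 15.1 RPKM for SMED30029247 and 11.0 RPKM for SMED30033800. It was 52.9 RPKM for SMED30007501, 48.7 RPKM for SMED30024391, 122 RPKM for SMED30003676, 3.22 RPKM for SMED30000412 and 31.7 RPKM for SMED30020539. It was 46.1 RPKM for SMED30021397, 120.4 RPKM for SMED30015120, 23.0 RPKM for SMED30016139 and 10.8 RPKM for SMED30019873. Cornifelin (SMED30035001) averaged 50.5 RPKM, SMED30017065 6.86 RPKM and SMED30034574 3.65 RPKM.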

How the results depend on the processing

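A log2 change beyond 1 left 101 lower and 109 higher transcripts in the *p53*(RNAi) step, 7 and 4 in the *unc22*(RNAi) step, 102 and 98 in the difference and 384 and 107 at day 12. A fit of only the groups compared gave 527 lower and 701 higher in *p53*(RNAi) and 20 and 12 in *unc22*(RNAi), and it cannot give the difference. Library weights gave 52 lower and 20 higher in *unc22*(RNAi), and a fit of 4 groups, which cannot give day 12, called 16 higher there. Leaving out 1 library gave 541 to 1177 lower and 717 to 1299 higher in *p53*(RNAi), 22 to 27 and 2 to 7 in *unc22*(RNAi), 265 to 666 and 428 to 796 in the difference, and 2692 to 3233 and 2864 to 3434 at day 12, where these leave-outs were chosen after seeing the data. Without *p53*(RNAi) day 18 replicate 3 the difference called 265 lower and 428 higher. The cause was not tested.

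Of 1075 values of 72 named transcripts under the alternatives, 1019 kept direction and side of the threshold, 50 lost the call, 2 gained one and 4 turned direction. All of these 4 were uncalled: *acsl-2* lay between -0.14 and 0.025 (0.025 without *p53*(RNAi) day 18 replicate 3), *acsl-1* between -0.015 and 0.16 (-0.015 without day 18 replicate 2), and SMED30028508 between -0.15 and 0.21 (-0.15 without day 15 replicate 3 and -0.05 without day 18 replicate 3). Calls of *zpuf-2* to *zpuf-5*, *egr-5*, *cyp3142A1* and *cyp3141A1* were lost without *p53*(RNAi) day 18 replicate 3.

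With the replicate number as a block, 1371 transcripts fell and 1664 rose in *p53*(RNAi). Libraries of the same number correlated at -0.12 and 0.09 in *p53*(RNAi) and at 0.12, -0.06 and 0.12 in *unc22*(RNAi) over 14756 transcripts. Those of other numbers lay between -0.17 and 0.07 in *unc22*(RNAi). With 2 libraries at *p53*(RNAi) day 18 the values of 1 mirror those of the other. The check therefore cannot decide whether the numbers pair the samples. Day 18 of *p53*(RNAi) with 2 libraries limits every step, and depth limits transcripts near 1 RPKM.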
